A study of Mus musculus with 8 samples.

Results

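Of the genes that govern how a muscle uses fat and builds mitochondria, 10 were followed in soleus (SOL) muscle of mice with and without the transcription factor IRF4 in their muscle fibers. They were chosen by gene symbol, and all 10 have a row among the 24054 genes of the table: the fatty acid receptors Ppara, Ppard and Pparg, the coactivators Ppargc1a and Ppargc1b, the estrogen-related receptors Esrra, Esrrb and Esrrg, the nuclear factor Nrf1 and the mitochondrial factor Tfam. Pparg was lower in MI4KO than in flox SOL, with values that did not overlap between the groups, and it was the only 1 of the 10 with an unadjusted p under 0.05. None of the 10 passed after adjustment over all genes tested. Ppara, Ppard, Ppargc1a and Esrra were highest in MI4KO mouse 3, which was highest for 30.9% of all tested genes. Ppargc1a was high in flox mouse 1 too, and Nrf1 and Tfam were at nearly the same level in all 8 mice.

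The samples are SOL muscles of 8 male C57BL/6 mice, 4 flox and 4 MI4KO, and the labels record a high-fat diet for all of them, whereas the paper's text describes chow-fed animals and does not give the diet or age of the sequenced mice. Every mouse carried floxed Irf4, in MI4KO mice together with Cre under Myl1, a myosin light chain gene of skeletal muscle fibers, so endothelial cells, adipocytes and the other cells between the fibers keep Irf4 in MI4KO muscle. RNA of each mouse gave 1 stranded poly(A) library, and within a group the mice are called 1 to 4 here, from the lowest to the highest of their label numbers. All values are levels as deposited, in CPM (reads per gene relative to a common library size) after TMM scaling, a scaling under which most genes keep their level between libraries.

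PPARs are nuclear receptors that bind DNA together with an RXR and switch on genes for fatty acid uptake and oxidation when a fatty acid ligand is bound. PGC-1α and PGC-1β, encoded by Ppargc1a and Ppargc1b, have no DNA-binding domain of their own. They dock onto PPARs, estrogen-related receptors (ERRs) and NRF-1, and NRF-1 in turn acts on Tfam, whose protein packages mitochondrial DNA and helps to start its transcription. SOL is a red muscle with many slow, oxidative fibers, in which this network is known to be strongly used.

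Libraries held between 13417512 and 16384565 reads on genes, and a gene was taken as detected from 3 reads, that is from levels of 0.181 to 0.225. These limits cover counting error only. The groups were compared with limma, which fits every gene by a linear model and shares the estimate of spread between genes, over the 11865 genes at a level of 1 or more in 4 or more mice. Markers of slow fibers summed to between 32196 and 42353 and those of fast fibers to between 46017 and 61683, both far above every other marker list. Of the fast fiber markers, Myh4 was at 1807, 2496, 34.5 and 35.4 in flox mice 1 to 4. In MI4KO mice 1 to 4 Myh4 was at 277.7, 831.2, 55.8 and 2174, so fiber content was not even within either group by this gene. Its part in the levels of the regulators was not tested. Ucp1, which defines brown adipocytes, had no read in any mouse except MI4KO mouse 4 (level 0.0604). Cidea, the other brown adipocyte marker read here, was at 18.9 to 28.0 over the mice. Irf4 itself lay at 0.686 to 1.68 in flox and 0.266 to 1.03 in MI4KO SOL, on 4 to 23 reads, with overlapping groups. By the measures below, a flox and an MI4KO library stood apart. In flox mouse 1, 13 liver genes summed to 161.9, and to at most 3.19 in any other mouse. The liver list was kept because earlier results of these data describe a flox mouse with liver transcripts. In MI4KO mouse 3, 159 of 11865 tested genes (1.34%) were more than 2 times the median of the other mice, against 19 to 30 genes in each of the rest. The paper speaks of flox littermates as controls, but the labels do not say which mice shared a litter, so no fit could use litters.

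RefSeq promoter windows, which run from 250 bases before to 50 bases after an annotated start on GRCm38.p6, were at hand for 9 of the 10 genes, 16 windows in all, and Ppargc1b was not matched. Windows are shown for Pparg, whose groups separated, and for Ppara, Ppard and Ppargc1a. These last genes were highest in MI4KO mouse 3, and so was Esrra, whose window is not shown. That mouse was highest for 30.9% of all tested genes. Capitals mark matches, on either strand, to short motifs searched in every window.
Pparg, most upstream start, chr6:115360894-115361193, plus strand: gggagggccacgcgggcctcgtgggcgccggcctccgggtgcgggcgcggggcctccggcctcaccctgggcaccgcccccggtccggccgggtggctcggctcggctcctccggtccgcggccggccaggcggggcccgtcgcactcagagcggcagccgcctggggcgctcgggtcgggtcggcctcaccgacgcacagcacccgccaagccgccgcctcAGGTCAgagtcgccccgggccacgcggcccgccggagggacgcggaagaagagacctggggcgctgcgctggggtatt
Pparg, middle start, chr6:115362099-115362398, plus strand: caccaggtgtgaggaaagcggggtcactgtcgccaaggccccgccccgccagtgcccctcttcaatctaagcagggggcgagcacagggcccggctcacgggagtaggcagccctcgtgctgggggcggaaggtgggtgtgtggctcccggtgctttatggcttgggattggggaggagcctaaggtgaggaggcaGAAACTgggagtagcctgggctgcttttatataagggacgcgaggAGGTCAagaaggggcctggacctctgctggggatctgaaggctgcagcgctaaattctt
Pparg, most downstream start, chr6:115421816-115422115, plus strand: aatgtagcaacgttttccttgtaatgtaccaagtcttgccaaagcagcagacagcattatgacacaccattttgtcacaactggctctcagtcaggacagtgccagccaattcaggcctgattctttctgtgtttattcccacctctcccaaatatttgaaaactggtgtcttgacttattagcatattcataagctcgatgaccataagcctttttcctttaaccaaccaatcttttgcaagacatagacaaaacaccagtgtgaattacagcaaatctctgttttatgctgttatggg
Ppara, chr15:85735526-85735825, plus strand: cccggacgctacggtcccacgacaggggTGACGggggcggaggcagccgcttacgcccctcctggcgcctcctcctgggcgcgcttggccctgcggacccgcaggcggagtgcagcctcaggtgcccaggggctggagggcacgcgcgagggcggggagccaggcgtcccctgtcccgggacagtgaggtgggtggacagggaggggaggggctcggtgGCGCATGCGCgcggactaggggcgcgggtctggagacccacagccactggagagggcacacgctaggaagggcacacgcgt
Ppard, chr17:28232504-28232803, plus strand: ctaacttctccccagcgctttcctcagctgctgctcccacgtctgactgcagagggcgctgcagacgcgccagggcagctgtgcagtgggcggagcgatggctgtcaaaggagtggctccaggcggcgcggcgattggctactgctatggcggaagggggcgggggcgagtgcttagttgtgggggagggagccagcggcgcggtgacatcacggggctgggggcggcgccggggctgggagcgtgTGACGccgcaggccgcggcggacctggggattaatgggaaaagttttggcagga
Ppargc1a, chr5:51567676-51567975, minus strand: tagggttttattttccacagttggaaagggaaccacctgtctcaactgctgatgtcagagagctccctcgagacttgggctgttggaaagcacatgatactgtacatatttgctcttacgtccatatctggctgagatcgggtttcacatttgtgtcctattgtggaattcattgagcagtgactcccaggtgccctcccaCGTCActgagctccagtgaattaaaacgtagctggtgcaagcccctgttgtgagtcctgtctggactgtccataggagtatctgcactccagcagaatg

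The first and the second Pparg window each hold AGGTCA, the half-site of many nuclear receptors, beginning 28 and 9 bases before the start, while the third window holds no match to any motif. AGGTCA occurs in 16.3% of all 32851 RefSeq windows and AAGGTCA, the longer form preferred by ERRs, in 4.72%, the latter in none of the 16 windows here. The half-site of the cyclic AMP response element, TGACG, begins 222 bases before the start of Ppara, 4 before that of Ppard and, as CGTCA on the printed strand, 49 before that of Ppargc1a. It is also found in a window of Esrrb but not in that of Esrra, and 20.8% of all windows hold it. CATGCGC, the core bound by NRF-1, lies on both strands of an overlapping stretch that begins 31 bases before the Ppara start, and 33 bases before that of Esrra, and 3.91% of all windows hold it. An ETS-type motif, CCGGAAG, the kind bound by NRF-2, begins 47 bases before the start of Tfam and is in 8.86% of windows. GAAACT, the repeated unit of the element bound by IRFs, begins 54 bases before the middle start of Pparg and is also in a window of Esrrb, and 15.8% of all windows have it. AGAACA, a half-site of the glucocorticoid receptor, was in 1 window each of Esrrb, Nrf1 and Tfam but in none of Ppara, Ppard or Ppargc1a (19.0% of all). CACGTG, the E-box of clock factors, was in none of the 16 (7.15% of all). Except for AAGGTCA, which contains AGGTCA, none of these motifs contains another. A match is only a run of letters in these windows.

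Pparg, the PPAR that drives fat cell formation and that capillary endothelium also expresses, is on chromosome 6 (115360951 to 115490399, plus strand). It was at 7.23, 8.12, 6.75 and 7.58 in flox mice 1 to 4 and at 4.21, 5.30, 5.65 and 5.44 in MI4KO mice 1 to 4, on 58 to 117 reads. Each MI4KO mouse was below each flox mouse. Means were 7.42 ± 0.574 (SD, n = 4) and 5.15 ± 0.644 (SD, n = 4). The log2 fold change of log2(level + 1) was -0.46 (standard error 0.11, 95% interval -0.70 to -0.21), and limma gave it an unadjusted p of 0.00158 and a Benjamini-Hochberg adjusted p of 1.0. For Pparg the exact permutation test, two-sided over the 8 mice, gave p = 0.0286, the smallest that 4 mice against 4 allow. The drop is short of 1.5-fold on this scale, which understates the change of a gene at so low a level. It stayed short of 1.5-fold without that effect too. The MI4KO mean was 0.694 times the flox mean, and DESeq2, edgeR and a pseudocount of 0.25 each gave -0.51. By unadjusted p, Pparg ranked 8 among the 11865 genes tested. The 18 other ways of processing the data left log2 fold changes of Pparg between -0.51 and -0.38 and unadjusted p between 0.000872 and 0.00645.

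Beyond Pparg, no regulator had an unadjusted p under 0.05, so that the count was 1 of 10, where 3.36% of all tested genes (399) had one. Lower calls made up 2.95% and higher calls 0.413% of tested genes, and Pparg was also the only 1 of the 10 whose groups did not overlap, against 2.07% of tested genes. This 87.7% share of lower genes among the 399 depends on the scaling: with levels scaled by the library totals alone, 33.4% of 395 such genes were lower. Past 1.5-fold as well stood 26 genes (0.219%), 19 of them lower (0.16%) and 7 higher (0.059%) in MI4KO SOL, and none of the 10 regulators was among them. No gene at all passed an adjusted p of 0.05 by limma. The 10 log2 fold changes had a median of 0.02, beside -0.01 over all tested genes, with 4 below and 6 above 0, although the signs of Ppard, Esrra, Nrf1 and Tfam turned under some of the other settings.

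**Figure D1:**
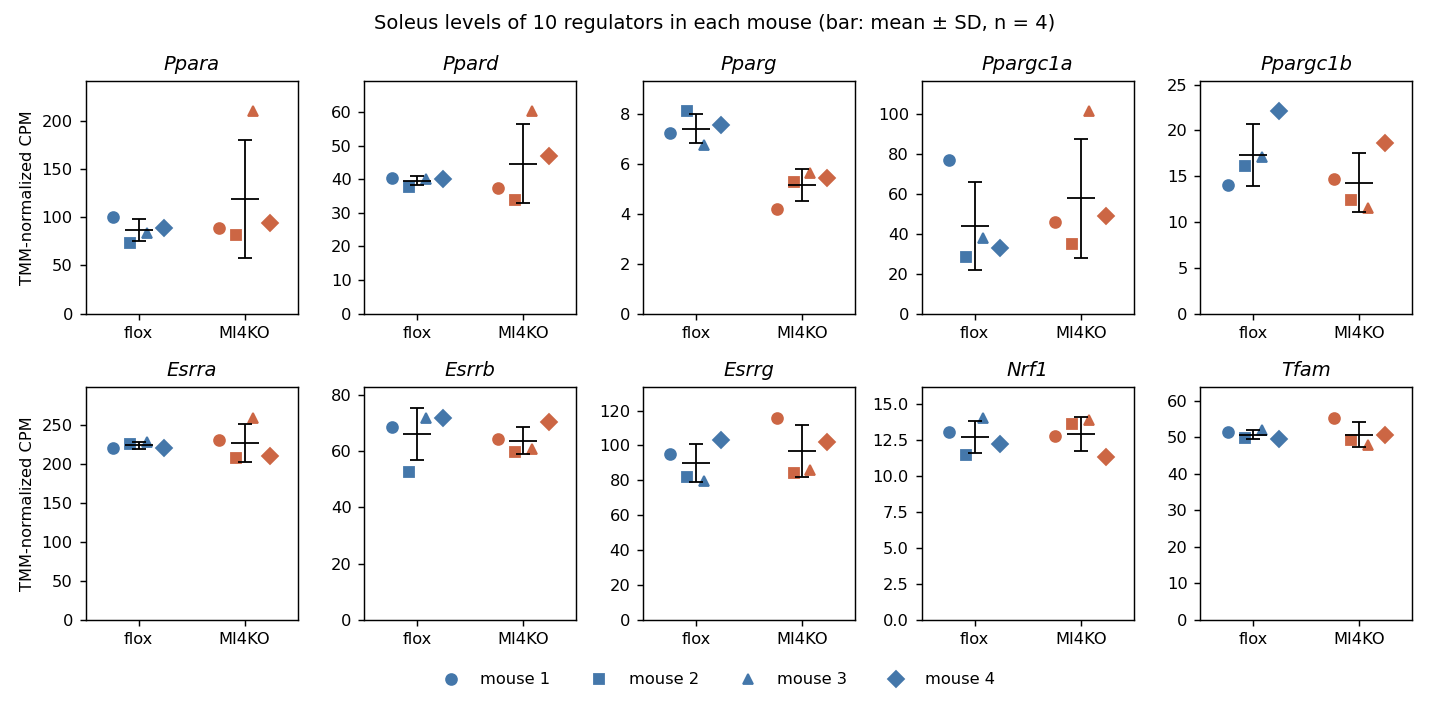
Levels of the 10 regulators in SOL of each mouse, in TMM-normalized CPM on axes that start at 0, with symbols for mice 1 to 4 of each group, a horizontal bar for the mean and error bars for the SD (n = 4). Pparg separates the groups, at 6.75 to 8.12 in flox mice and 4.21 to 5.65 in MI4KO mice. MI4KO mouse 3 (triangle) lies far above the others for Ppara. It is also highest for Ppargc1a, at 101.2, with flox mouse 1 next at 76.7.

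**Figure D2:**
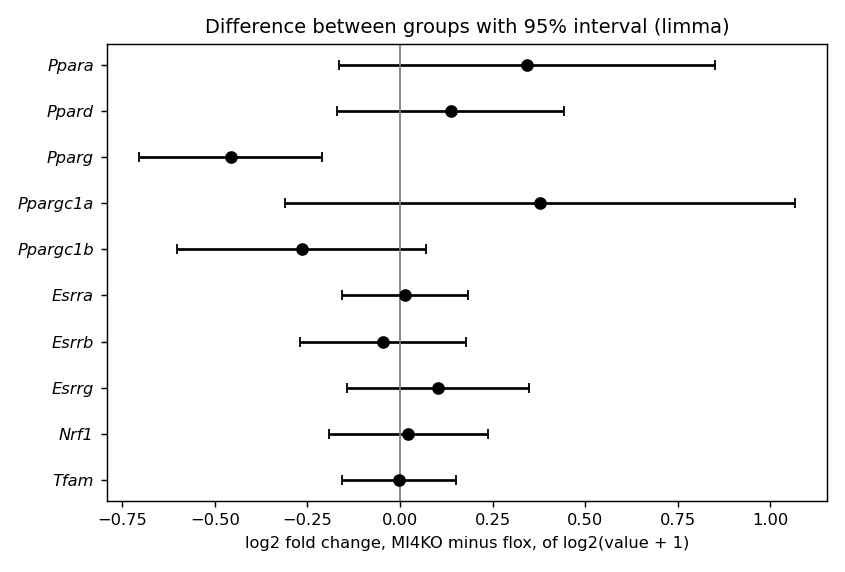
Log2 fold change of each regulator, MI4KO minus flox, on the log2(level + 1) scale (points) with its 95% interval from limma (bars, 4 mice per group). The interval of Pparg, -0.70 to -0.21, lies below 0, and the intervals of the other 9 genes include 0.

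Cells other than fibers express Pparg too, and their markers were read beside it. In a bulk library, fewer cells of a type and less RNA per cell cannot be told apart. Endothelial markers summed to between 338.5 and 415 in flox SOL and between 258.5 and 361 in MI4KO SOL (exact permutation p = 0.114), all 6 had log2 fold changes below 0, and Cdh5 and Kdr had unadjusted p under 0.05. Kdr, the VEGF receptor of endothelium, was at 57.0 to 67.2 in flox mice and 38.7 to 63.4 in MI4KO mice. Adipocyte markers summed to 240.2 to 302.3 and to 180.6 to 271 (exact permutation p = 0.229), with 5 of 6 tested genes below 0 and Cfd under the limit. Adipoq, the adipokine that defines fat cells, was at 5.99 to 7.56 in flox mice and at 2.18, 6.59, 2.99 and 9.97 in MI4KO mice 1 to 4. The MI4KO values of Adipoq reached both below and above those of flox mice. No marker of either list was at 0 in any mouse.

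Pparg was also set against these sums, an alternative chosen after the values were seen. Its level was 1.66% to 2.14% of the endothelial sum in flox mice and 1.51% to 1.63% in MI4KO mice, a log2 difference of -0.29 (exact permutation p = 0.0286). Relative to the adipocyte sum it was 2.36% to 3.01% and 2.01% to 2.34%, a log2 difference of -0.32 (exact permutation p = 0.0286), but 82.6% to 94.1% of that sum was Fabp4, a fatty acid binding protein gene that capillary endothelium also expresses. Against the other 6 adipocyte markers Pparg was at 20.7% to 25.4% in flox mice and at 39.5%, 16.02%, 32.1% and 11.5% in MI4KO mice 1 to 4, so the groups overlapped and the log2 difference was -0.06 (exact permutation p = 0.886). The part of endothelial cells and of adipocytes in the level of Pparg was not tested.

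Ppara, the PPAR that turns on fatty acid oxidation during fasting, maps to chromosome 15 (85734983 to 85802819, plus strand). Flox mice 1 to 4 had Ppara at 100.7, 73.7, 83.4 and 89.1, and MI4KO mice 1 to 4 at 88.9, 81.8, 209.8 and 94.3. MI4KO mouse 3 had 2.36 times the median of the other mice, and the remaining 7 mice of both groups shared one range. Ppara averaged 86.7 ± 11.3 (SD, n = 4) in flox mice, against 118.7 ± 61.0 (SD, n = 4) in MI4KO mice. By limma this is 0.34 on the log2 scale (standard error 0.23, 95% interval -0.17 to 0.85, unadjusted p = 0.168). Without MI4KO mouse 3 the MI4KO mean of Ppara was 88.3 ± 6.30 (SD, n = 3) and the log2 fold change 0.03.

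Ppard, the PPAR most linked to endurance training in muscle, lies on chromosome 17 (28232700 to 28301474, plus strand). Its levels in flox mice 1 to 4 were 40.5, 37.7, 39.99 and 40.1, and in MI4KO mice 1 to 4 they were 37.5, 33.9, 60.2 and 47.0. The flox values were closely spaced, and the MI4KO values reached both below and above them. Ppard averaged 39.5 ± 1.27 (SD, n = 4) against 44.7 ± 11.7 (SD, n = 4), with a log2 fold change of 0.14 (95% interval -0.17 to 0.44, unadjusted p = 0.349 by limma) that was -0.01 without MI4KO mouse 3.

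Per kilobase of the longest annotated transcript, Ppara made up 64.1% ± 2.73 (SD, n = 4) of the PPAR sum in flox and 69.2% ± 5.16 (SD, n = 4) in MI4KO mice. Ppard took 27.0% ± 1.64 and 25.4% ± 3.90 of this sum, respectively. The Pparg share was 7.78% to 10.8% in flox mice and 3.31% to 7.01% in MI4KO mice, and, like the Pparg levels it is made from, did not overlap.

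Ppargc1a, whose protein PGC-1α responds to exercise, fasting and cold, is on chromosome 5 (51454250 to 51567726, minus strand). It was at 76.7, 28.5, 37.7 and 32.9 in flox mice 1 to 4 and at 45.6, 35.1, 101.2 and 48.8 in MI4KO mice 1 to 4, on 411 to 1523 reads. This was the widest range of the 10 genes, the highest mouse having 3.55 times the lowest. A mouse of each group stood high, MI4KO mouse 3 with 2.69 times and flox mouse 1 with 2.04 times the median of the others. Means of Ppargc1a were 43.9 ± 22.2 (SD, n = 4) and 57.7 ± 29.6 (SD, n = 4), and the log2 fold change was 0.38 (standard error 0.32, 95% interval -0.31 to 1.07, unadjusted p = 0.255 by limma). Without flox mouse 1 the difference was 0.68 (unadjusted p = 0.0287), without MI4KO mouse 3 it was 0.07, and without both it was 0.37 (unadjusted p = 0.0133).

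Ppargc1b, which encodes the related coactivator PGC-1β, did not follow Ppargc1a. Flox mice 1 to 4 had 14.1, 16.1, 17.1 and 22.1, and MI4KO mice 1 to 4 had 14.7, 12.4, 11.5 and 18.7, so MI4KO mouse 3, highest for Ppargc1a, was lowest here. The groups overlapped, at 17.3 ± 3.40 (SD, n = 4) and 14.3 ± 3.20 (SD, n = 4), and the log2 fold change was -0.27 (standard error 0.15, 95% interval -0.60 to 0.07, unadjusted p = 0.111 by limma). Without MI4KO mouse 4, the highest of its group, it was -0.39 (unadjusted p = 0.0186, adjusted p = 0.903, both by limma). Per kilobase, Ppargc1a made up 45.7% to 75.5% of the sum of both coactivators in flox mice and 59.7% to 83.3% in MI4KO mice.

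**Figure D3:**
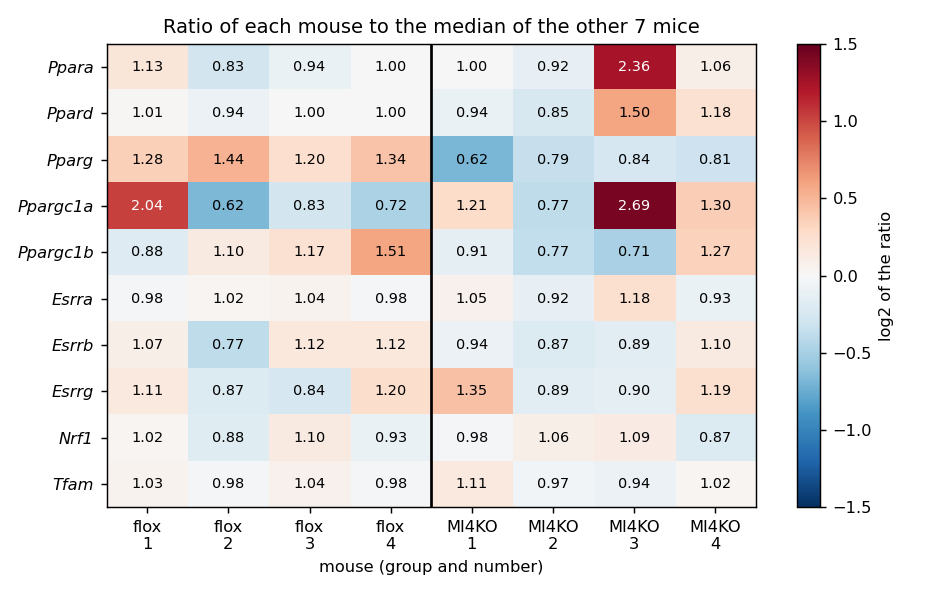
Ratio of the level in each mouse (columns) to the median of the other 7 mice for each regulator (rows), printed in each cell and colored by its log2. MI4KO mouse 3 had 2.69 for Ppargc1a, 2.36 for Ppara and 1.504 for Ppard but 0.715 for Ppargc1b, and flox mouse 1 had 2.04 for Ppargc1a.

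Genes whose pattern over the 8 mice came nearest to Ppargc1a were looked for by the root-mean-square distance of log2(level + 1) values after subtracting each gene's mean. The nearest of 11864 genes was Glt28d2 (distance 0.280), followed by Trim63 (0.292), the muscle atrophy ubiquitin ligase MuRF1, Ppara (0.297), the phosphate transporter gene Slc20a1 (0.299) and Acsl3 (0.301), an acyl-CoA synthetase gene. The median distance was 0.574. Trim63 was at 326.5 in MI4KO mouse 3 and at 124.4 to 172.8 in the other mice, so its likeness rests mainly on that mouse. Slc20a1 was at 18.2 in MI4KO mouse 3 and at 17.0 in flox mouse 1, against 8.53 to 13.8 in the rest, so its likeness rests on both. Ppard ranked 208 and Ppargc1b 11366 by this measure. In MI4KO mouse 3, 16 genes of the glucocorticoid response summed to 2506, against 1146 to 1345 in the other mice, and 15 of them were highest there. In the same mouse 16 genes of the circadian clock summed to 753.3, against 801.9 to 1002. Even so, 4 of these, Arntl, Clock, Npas2 and Per1, were highest there. This mouse was highest for 30.9% of all tested genes. Both lists were kept because earlier results of these data describe an MI4KO mouse that stands apart in them, so they are no independent finding. The part of glucocorticoid response and clock genes in the levels of Ppara, Ppard and Ppargc1a was not tested.

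Esrra, the ERR that works most closely with PGC-1α on respiratory chain genes, was the most abundant of the 10. It lies on chromosome 19 (6910977 to 6921813, minus strand) and was at 220.9, 225.6, 229.1 and 221.0 in flox mice 1 to 4 and at 231.5, 207.5, 260.0 and 210.1 in MI4KO mice 1 to 4. The flox values spread no more than their read counts alone would make them (SD of 1.76% of the mean, with 1.76% from counting), and those of MI4KO mice spread more (10.7% and 1.70%). With means of 224 ± 3.95 (SD, n = 4) and 227 ± 24.3 (SD, n = 4), the log2 fold change of Esrra was 0.01 (95% interval -0.16 to 0.18, unadjusted p = 0.859 by limma), and it turned to -0.05 without MI4KO mouse 3.

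Esrrb, better known from stem cells but also present in oxidative muscle, is on chromosome 12 (86361117 to 86521628, plus strand). Flox mice 1 to 4 had 68.5, 52.6, 71.9 and 71.9, and MI4KO mice 1 to 4 had 64.3, 59.5, 60.7 and 70.5. Flox mouse 2 was below and flox mice 3 and 4 were above the MI4KO range, and the log2 fold change was -0.05 (95% interval -0.27 to 0.18, unadjusted p = 0.664 by limma).

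Esrrg, an ERR that drives oxidative fiber and capillary programs, is on chromosome 1 (187608791 to 188214885, plus strand) and was at 94.9, 82.1, 79.7 and 102.9 in flox mice 1 to 4 and at 116.0, 84.1, 85.8 and 101.7 in MI4KO mice 1 to 4. Both groups held low and high mice, and the log2 fold change of Esrrg was 0.10 (95% interval -0.14 to 0.35, unadjusted p = 0.381 by limma). Within the ERR family, Esrra made up 73.7% ± 2.39 (SD, n = 4) of the sum per kilobase in flox and 73.5% ± 3.11 (SD, n = 4) in MI4KO mice.

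Nrf1, the gene of nuclear respiratory factor 1 (chromosome 6, 30047988 to 30153458, plus strand), was at 13.0, 11.4, 14.0 and 12.2 in flox mice 1 to 4 and at 12.8, 13.6, 13.9 and 11.3 in MI4KO mice 1 to 4. The log2 fold change was 0.02 (95% interval -0.19 to 0.24, unadjusted p = 0.826 by limma), with 165 to 210 reads behind each level. Tfam (chromosome 10, 71225464 to 71238280, minus strand) was at 51.5, 49.8, 52.0 and 49.5 in flox mice 1 to 4 and at 55.3, 49.1, 47.7 and 50.6 in MI4KO mice 1 to 4. Its highest mouse had 1.16 times the level of its lowest, the narrowest range of the 10. The 95% interval of the Tfam log2 fold change, -0.16 to 0.15, spans 0.898 to 1.11 times the flox level on the level + 1 scale, and its sign turned under other scalings.

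Compared between genes, levels are given per kilobase of the longest transcript, as means over flox mice. Esrra stood first at 90.0 ± 1.59 (SD, n = 4), then Ppara at 25.4 ± 3.31, Esrrg at 16.7 ± 2.03, Esrrb at 15.4 ± 2.15, Tfam at 12.2 ± 0.298 and Ppard at 10.6 ± 0.341. Lowest were Ppargc1a at 6.80 ± 3.43, Ppargc1b at 4.74 ± 0.929, Pparg at 3.49 ± 0.270 and Nrf1 at 3.13 ± 0.276 per kilobase. Neighbors in this order whose flox ranges overlapped were Esrrg and Esrrb, Esrrb and Tfam, Ppard and Ppargc1a, Ppargc1a and Ppargc1b, and Pparg and Nrf1. In MI4KO mice Pparg, at 2.42 ± 0.303 (SD, n = 4), came after Nrf1, at 3.19 ± 0.286 (SD, n = 4), and the other places were those of flox mice. The order also depends on the length used: over the union of all exons Ppargc1a, at 6.67, came before Ppard, at 5.26, and Tfam, at 11.4, before Esrrb, at 10.9. Because Pparg has several starts, its level per kilobase does not tell its transcripts apart.

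**Figure D4:**
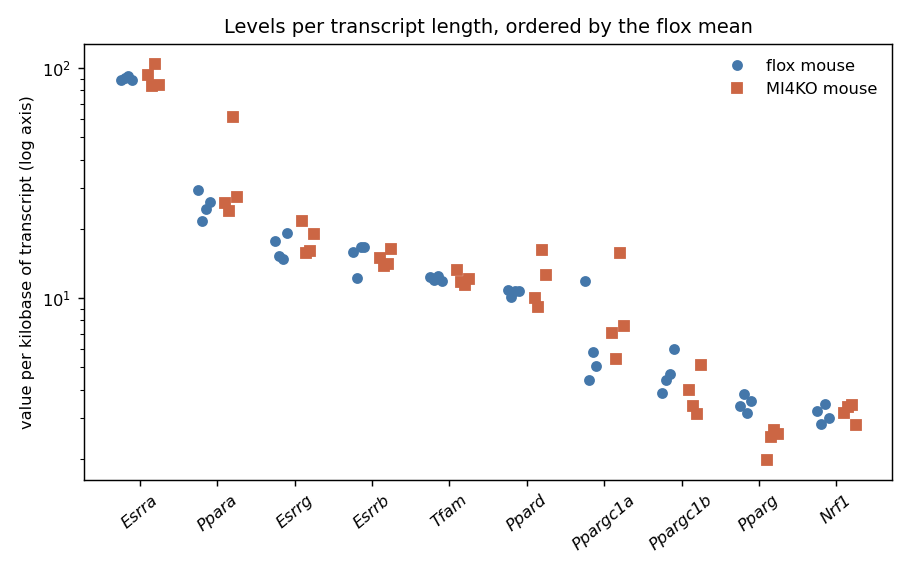
Level of each regulator per kilobase of its longest annotated transcript, on a log axis, for each flox (circles) and MI4KO (squares) mouse, ordered by the flox mean. Esrra is highest at 90.0 in flox mice, Ppara follows at 25.4, and Pparg and Nrf1 are last at 3.49 and 3.13.

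The partners and targets of these regulators were read from lists of known genes. The RXR genes Rxra, Rxrb and Rxrg, which encode the obligate partners of PPARs, had no member with an unadjusted p under 0.05 by limma, edgeR or DESeq2, and a median log2 fold change of 0.04. Rxrg, the muscle-enriched form, was at 47.1 in MI4KO mouse 3 and at 21.2 to 26.6 in the other mice. All 3 RXR genes were highest in MI4KO mouse 3, which was highest for 30.9% of all tested genes.

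Of 15 coregulators, none had an unadjusted p under 0.05 by limma, edgeR or DESeq2, and the median log2 fold change was -0.02. The largest difference was that of Lpin1, a PGC-1α partner that is also a phosphatidate phosphatase (0.38, standard error 0.28, unadjusted p = 0.198 by limma), with 546.6 in MI4KO mouse 3 and 173.5 to 242.2 in the other mice. Nrip1, the corepressor RIP140 of the same receptors, came next at 0.31 (standard error 0.22, unadjusted p = 0.177 by limma). On the lower side were Ncoa1, a steroid receptor coactivator gene (-0.16), and Kat2a, whose enzyme GCN5 acetylates PGC-1α (-0.12). These depended on single mice, since limma put Nrip1 under the limit without MI4KO mouse 1 (0.52, unadjusted p = 0.0153), Kat2a without MI4KO mouse 3 (-0.23, unadjusted p = 0.0219) and Ncoa1 without MI4KO mouse 4 (-0.24, unadjusted p = 0.0208).

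Among 19 genes that act on PGC-1α or its promoter, such as kinases, calcineurin subunits and MEF2 factors, none had an unadjusted p under 0.05 by limma, with a median of -0.02. Mef2a, a MEF2 factor of muscle, was at 79.3 to 92.6 in flox mice and 86.0 to 99.7 in MI4KO mice (0.14, unadjusted p = 0.0932 by limma), and was the single call of edgeR (unadjusted p = 0.0387) and of DESeq2 (unadjusted p = 0.0478) on the recovered reads. By limma Mef2a came under the limit with library-total scaling (unadjusted p = 0.0260), with median-of-ratios scaling (unadjusted p = 0.0360) and without MI4KO mouse 2 (unadjusted p = 0.0446). Crtc3, a CREB coactivator gene, had the lowest difference at -0.21 (standard error 0.12, unadjusted p = 0.122 by limma). Without MI4KO mouse 4, Crtc3 (-0.31, unadjusted p = 0.0217) and the calcium kinase gene Camk2a (-0.18, unadjusted p = 0.0469) were under the limit. Only 1 of the 19 was highest in MI4KO mouse 3, whereas 7 were highest in flox mouse 1. Over all tested genes, these shares were 30.9% and 8.75%, respectively.

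NRF-2 subunits and factors that copy or transcribe mitochondrial DNA formed a list of 21 genes, 20 of them tested. None had an unadjusted p under 0.05 by limma, and the median log2 fold change was 0.04. Gabpa, the DNA-binding subunit of NRF-2, was at 31.3 to 35.5 in flox mice and 33.4 to 40.1 in MI4KO mice (0.14, unadjusted p = 0.118 by limma), and edgeR put it under the limit (unadjusted p = 0.0452), while DESeq2 called no gene of the list. Polg2, the accessory subunit of the mitochondrial DNA polymerase, was at 2.49 to 3.001 in flox mice and 1.68 to 2.66 in MI4KO mice (-0.29, standard error 0.13, unadjusted p = 0.0510 by limma). Polg2 came under the limit, lower in MI4KO mice, by limma without the trend (unadjusted p = 0.0188), with median-of-ratios scaling (unadjusted p = 0.0460), without MI4KO mouse 3 (-0.36, unadjusted p = 0.0199), without flox mouse 1 (unadjusted p = 0.0463) and without both (-0.41, unadjusted p = 0.0185). Scaling by library total brought Gabpa, Tefm and Mterfd3 under it, all higher in MI4KO mice. Median-of-ratios scaling also brought Gabpa under it (unadjusted p = 0.0421 by limma). Transcripts of the mitochondrial genome itself, looked for as 10 genes by symbol, had no matching row and so were not analysed here.

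Of the 26 PPAR targets reported here, none had an unadjusted p under 0.05 by limma, edgeR or DESeq2, and the median log2 fold change was 0.0004. Pdk4, whose kinase inhibits pyruvate dehydrogenase, was at 2470 in MI4KO mouse 3 and at 1562 to 1860 in the others, and Plin2, a lipid droplet coat gene, at 70.1 and 46.9 to 55.3. Ech1, of fatty acid oxidation, lay at 1380 to 1568 in flox mice and 1310 to 1403 in MI4KO mice (-0.12, unadjusted p = 0.130 by limma), and Acot2, an acyl-CoA thioesterase gene, at 171.9 to 195.5 and 142.3 to 200.1. Scaling by library total put Pdk4 under the limit (0.20, unadjusted p = 0.0395), and leaving out MI4KO mouse 3 put Ucp3, the uncoupling protein of muscle, under it (-0.26, unadjusted p = 0.0169).

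Targets shared by PGC-1 and ERRs, which include respiratory chain subunits, had no gene of 29 with an unadjusted p under 0.05 by limma, edgeR or DESeq2, and a median of 0.02. Their log2 fold changes ran from -0.09 for Cox5b, a cytochrome oxidase subunit, to 0.08 for Mb, the oxygen store myoglobin. Without flox mouse 1 and MI4KO mouse 3 together, limma put Cox7a1 of this list under the limit (-0.16, unadjusted p = 0.0418). MI4KO mouse 3 was highest for 24 of the 29, and their median ratio to the other mice was 1.17 there, beside 1.05 over all tested genes. For PPAR targets this mouse was highest for 19 of 26, with a median ratio of 1.13. Of all tested genes, 30.9% were highest in that mouse.

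**Figure D5:**
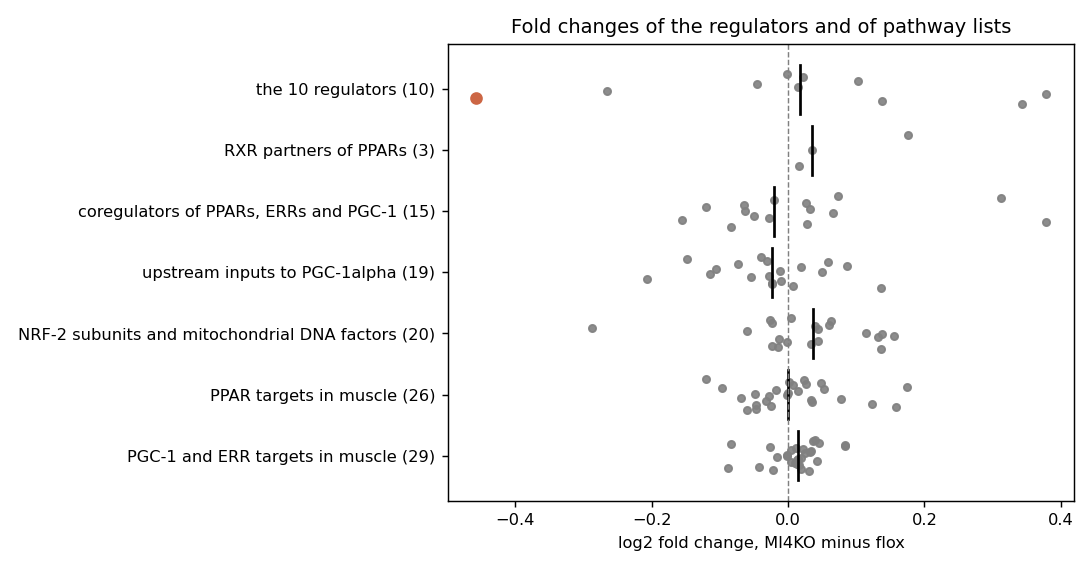
Log2 fold changes, MI4KO minus flox, of the tested genes of each list (number in brackets), with a black line at each list's median and a larger orange point for a gene with an unadjusted p under 0.05 by limma. Apart from Pparg (-0.46), no gene shown passed that limit, and the 7 medians lie between -0.02 and 0.04.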

How the data were processed

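SOL RNA of 4 flox and 4 MI4KO mice was sequenced as stranded poly(A) single reads of 50 bases. The submitters' processing notes list bcl2fastq 2.17, Bowtie2 2.1.0, RSEM 1.2.15 and mm10. The authors mapped reads to UCSC transcripts, and what they deposited per gene and mouse is a signal in CPM with TMM scaling. A signed fold change, deposited as a score, and a p-value and FDR from the authors' edgeR comparison were not used. Division by the value of a single read gave whole numbers (within 0.1) for 100% of the non-zero values. The chi-square per degree of freedom between libraries, at least 6.06, gave no hint of a repeated library. This measure was 6.42 between MI4KO mice 1 and 2, and 21.0 to 52.4 between either of them and any other mouse. Among flox mice it was 6.06 to 12.3. By it, MI4KO mice 1 and 2 stood apart from the rest as well.

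limma 3.58.1 (R 4.3.3) with a mean-variance trend was run on log2(level + 1) for genes with a level of at least 1 in at least 4 of 8 mice, with Benjamini-Hochberg adjustment over all of them, and checked on simulated data. The study's methods name edgeR, but the deposited values are normalized, so edgeR 4.0.16 and DESeq2 1.42.0 on recovered reads served as alternatives. Exact two-sided permutation tests used scipy 1.17.1 on the 8 values. Positions and lengths are from GENCODE M21 (GRCm38), and promoter windows from RefSeq (GRCm38.p6). The genes and lists were chosen with earlier results of these data known. Named are the 10 regulators, up to 2 genes of each list with the smallest p in each direction, the 5 genes nearest to the regulator of widest range, and markers. 1 gene of the PPAR target list is not reported here and is left out of its counts. Mef2a, Gabpa, Tefm, Mterfd3, Pdk4, Ucp3, Camk2a and Cox7a1 calls were picked with their values in view. So were the clock genes, Kdr, Adipoq, Fabp4, Myh4, Emr1 and Cd163. Other alternatives were another pseudocount, no filter, other scalings, other variance models, a covariate for low or high mouse numbers, each mouse left out, and both doubted mice left out.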

Additional observations from a re-analysis of the deposited data

Results flagged for a closer look

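A value far from the other mice of its group was found in 3 of the 20 sets examined (10 genes in 2 groups), where chance gives about 1 in 20. Ppara in MI4KO mouse 3 was 209.8, and its gap to the next mouse made up 0.849 of the range of the group. Ppard in flox mouse 2, at 37.7, lay below the other flox mice by 0.836 of their range, although that whole range was narrow (SD of 3.20% of the mean). Esrrb in flox mouse 2 was 52.6, with a gap of 0.842 of the range. The values of Ppargc1a in MI4KO mouse 3 and flox mouse 1 were not among these.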

How the results depend on the processing

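Pparg stayed lower with an unadjusted p under 0.05 in all 18 alternative fits, with adjusted p between 0.886 and 1.0, and no other regulator did. Relative to the adipocyte markers other than Fabp4 the Pparg difference was -0.057 and past no limit. The count of regulators under the limit was 1, or 2 without flox mouse 1 and MI4KO mouse 3 together, and 1 to 2 with each mouse left out (2 without flox mouse 1, which adds Ppargc1a, and 2 without MI4KO mouse 4, which adds Ppargc1b). Genes past both limits numbered 26, and 51 by DESeq2, 65 by edgeR, 13 by limma with robust estimation, 60 with a pseudocount of 0.25 and 18 to 57 with a mouse left out (57 without MI4KO mouse 4). At an unadjusted p under 0.05 alone stood 399 genes by limma, 363 by edgeR and 248 by DESeq2, of which 87.7%, 64.5% and 63.7% were lower, and median-of-ratios scaling gave 65.6% of 395. Adjusted calls numbered 0, and 0 to 1 with a mouse left out (1 without MI4KO mouse 2).

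Log2 fold changes with each mouse left out ran from 0.03 to 0.48 for Ppara, -0.015 to 0.25 for Ppard, 0.072 to 0.68 for Ppargc1a, -0.39 to -0.15 for Ppargc1b, -0.052 to 0.056 for Esrra, -0.15 (without flox mouse 2) to -0.0028 for Esrrb, 0.013 to 0.17 for Esrrg, -0.022 to 0.079 for Nrf1 and -0.044 to 0.026 for Tfam. Without both doubted mice they were -0.0037 for Ppard, 0.37 for Ppargc1a, -0.059 for Esrra and 0.033 for Tfam. The sign of Tfam, -0.0017 as reported, also turned with DESeq2 (0.0192), edgeR (0.0170), median-of-ratios scaling (0.0185) and library totals (0.0419). The cause of these shifts was not tested. Over the union of exons in place of the longest transcript, flox levels per kilobase were 51.1 for Esrra, 14.5 for Esrrg, 10.9 for Esrrb, 11.4 for Tfam, 5.26 for Ppard, 2.51 for Pparg and 1.23 for Nrf1, since that length is greater. No paired analysis was possible because the labels number each mouse uniquely and no number is shared between groups. With 58 to 117 reads, counting alone gives Pparg an SD of 9.68% of the mean in flox and 11.3% in MI4KO mice, beside 7.74% and 12.5% observed.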

Other observations

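Schwann cell markers summed to 56.5 to 83.9 in flox and 52.7 to 69.0 in MI4KO SOL, and macrophage markers to 27.5 to 36.1 and 28.4 to 36.7, with none of the tested genes of either list (4 and 6) under an unadjusted p of 0.05 by limma. The macrophage gene Emr1, too low to be tested, was at 0.675 to 0.873 in flox mice and at 0.943 to 1.13 in MI4KO mice, without overlap. Such levels rest on few reads, and 2.07% of tested genes did not overlap either. Of the 6 tested macrophage genes only Cd163 was lower in MI4KO SOL (-0.25, unadjusted p = 0.131 by limma). Neutrophil markers summed to at most 0.375 in 7 mice and to 4.25 in MI4KO mouse 3. Cidea, a lipid droplet gene of oxidative fat cells and the brown adipocyte marker read beside Ucp1, ranged from 18.9 to 22.6 in flox SOL. It ranged from 19.3 to 28.0 in MI4KO SOL, highest in MI4KO mouse 3.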
